A study of Mus musculus with 8 samples.

Results

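The endothelium of 2 breast tumour models was compared in tumours injected with PBS, the vehicle control. A cell from a sorted tumour endothelial cell (EC) library was counted as an EC when it carried at least 1 UMI (a molecule of RNA counted once) of Pecam1, which encodes CD31, and UMIs of fewer than 2 of the 6 genes Rgs5, Pdgfrb, Epcam, Krt8, Ptprc and Tyrobp, which mark mural, epithelial and immune cells. This rule kept 3446 ECs of the 4003 cells deposited for the 4 PBS libraries, out of 8204 cells and 6371 ECs in all 8 libraries of the series. The implanted PBS libraries gave 949 and 1056 ECs, and the spontaneous PBS libraries gave 894 and 547.

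The spontaneous tumours arose in MMTV-PyMT mice, in which the mouse mammary tumour virus promoter drives the polyoma middle T oncogene in mammary epithelium. For the implanted tumours, cells cultured from MMTV-PyMT tumours were placed with Matrigel in the mammary fat pad of mice. The methods name no transgene for these mice. The oncogene of the tumour cells came from the same transgene in both models. The mice whose ECs were compared were described as transgenic only for the spontaneous tumours, so host genotype went with the model. The other 4 libraries came from tumours of the same 2 models injected with cGAMP, a cyclic dinucleotide that activates STING. All mice were adult, and all ECs were sorted as live CD45-/CD31+ cells and sequenced with 10x Chromium 3′ chemistry. The strain is C57BL/6 in the labels and FVB in the methods of the study for both models, and this was not settled. Each group held 2 libraries. The methods name 2 mice per group, but the labels do not tie a library to a mouse, so the p-values measure the spread between libraries.

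Interferons are cytokines that signal through the JAK kinases to STAT transcription factors. Interferon-gamma, made mainly by T cells and natural killer cells, acts through GAS elements in promoters, induces IRF1 and CIITA, and thereby raises the genes for antigen presentation on MHC class I and class II. Type I interferons, which are made after STING activation among other triggers, act through a complex that contains STAT2 and IRF9 and binds ISRE elements. ECs respond to both, and can display antigen, secrete chemokines that attract T cells and change the adhesion molecules on which leukocytes arrest.

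The ECs held 9588806 and 6393720 UMIs in the spontaneous PBS libraries and 13398563 and 15445737 in the implanted PBS libraries. Median depth per EC was higher in implanted tumours, at 12946 and 13107 UMIs against 9238 and 10032. Cdh5, the gene of VE-cadherin, had a UMI in 92.2% to 95.5% of ECs. The immune markers Lyz2 and C1qa were found in at most 1.05% of ECs thinned to 3000 UMIs each. Thinned alike, Cdh5 was found on average in 93.7% of ECs and 71.3% of removed cells in spontaneous tumours. In implanted tumours it was found in 92.2% and 89.9%, so there Cdh5 did little to tell kept from removed cells. Any 2 libraries shared at most 3 cell barcodes. Gene levels are library averages across ECs in CPM, for which every cell was first scaled to the same total. They were tested as log2(CPM + 1) with limma on all 8 libraries, p-values were adjusted by Benjamini-Hochberg over all genes tested, and a gene was called when its adjusted p was under 0.05. Fold changes are implanted relative to spontaneous on that log2 scale, which understates the change of low genes, and ± after a log2 value is its standard error.

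Of 10335 genes tested, 765 (7.40%) were called, 345 of them higher in implanted tumours (3.34%) and 420 lower (4.06%). Among the called genes, 181 were at least 2-fold higher (1.75%) and 59 were at least 2-fold lower (0.571%). The share of calls that were higher was 45.1% with CPM scaling and 63.2% with median-of-ratios scaling, whereas these scalings gave a median log2 fold change over all genes of -0.06 and 0.01. The number of calls rested on single libraries and was 466 or 239 when replicate 1 or 2 of the spontaneous PBS group was left out, and 284 or 372 when replicate 1 or 2 of the implanted PBS group was.

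**Figure D1:**
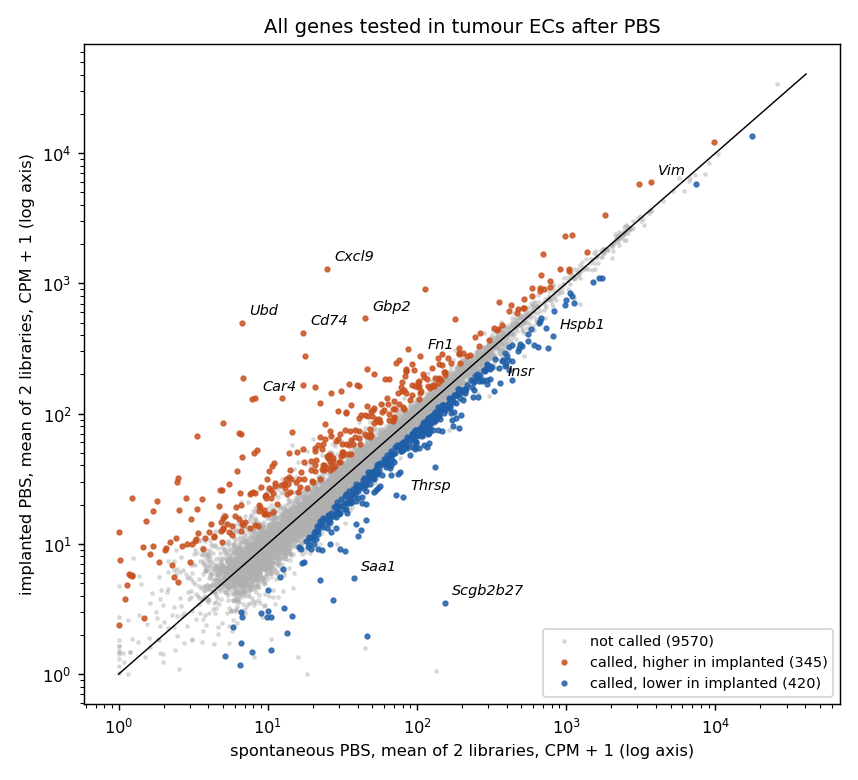
Each point is 1 of the 10335 genes tested, with its mean over the 2 spontaneous PBS libraries on the x axis and over the 2 implanted PBS libraries on the y axis, both as CPM + 1 on log axes, and a diagonal of equal levels. The 345 genes called higher and the 420 called lower are coloured, and the points farthest above the diagonal include Ubd, Cxcl9, Cd74 and Gbp2.

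The called genes at least 2-fold higher include known interferon-induced genes, and promoter windows were searched for sequences that STAT and IRF proteins are known to bind. The windows of 300 bases (250 before and 50 after the transcription start, RefSeq, GRCm38.p6) were read on both strands for the ISRE-type sequence (GAAA, any 2 bases, GAAA) and for the GAS-type sequence (TTC, any 3 bases, GAA), which reads the same on both strands. The ISRE-type sequence was present in 3.44% of all 32851 windows. A gene was counted when any of its windows held a match, and 3.98% of the 8107 tested genes with a window held the ISRE-type sequence. Of the 181 called genes at least 2-fold higher, 131 had a window, and 34 of these (26.0%) held it. The GAS-type sequence was present in 8.30% of all windows, in 8.2% of the tested genes with a window and in 27 of those 131 genes (20.6%). Either type was held by 53 of the 131 (40.5%), against 11.6% of the tested genes with a window. Of the 50 called genes at least 2-fold lower that had a window, 1 held the ISRE-type sequence (2.0%) and 6 the GAS-type (12%). The motifs overlapped each other in 24 of all windows. A match describes the letters of the window and is not evidence that a protein was bound there.

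Stretches of 70 bases that hold these matches are shown for 6 genes, with values given below for all but Gbp7. They were picked for their matches and their values, run 5′ to 3′ on the strand of the gene and lie upstream of the RefSeq start, and capitals mark every match. GENCODE places the start of Gbp2 at 142620602, within the stretch shown. Gbp2 (chr3:142620574-142620643, + strand), Gbp7 (chr3:142530226-142530295, + strand) and Igtp (chr11:58199486-58199555, + strand) encode interferon-induced GTPases, as does Tgtp2 (chr11:49064249-49064318, - strand). B2m (chr2:122147518-122147587, + strand) encodes the light chain of MHC class I, and Irf1 (chr11:53769893-53769962, + strand) encodes an interferon-induced transcription factor.
Gbp2: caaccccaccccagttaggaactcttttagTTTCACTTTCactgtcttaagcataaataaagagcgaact
Gbp7: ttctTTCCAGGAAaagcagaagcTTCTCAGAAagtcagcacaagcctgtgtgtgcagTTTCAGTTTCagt
Igtp: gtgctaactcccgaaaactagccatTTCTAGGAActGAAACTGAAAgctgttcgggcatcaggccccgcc
Tgtp2: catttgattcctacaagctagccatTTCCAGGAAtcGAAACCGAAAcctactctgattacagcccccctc
B2m: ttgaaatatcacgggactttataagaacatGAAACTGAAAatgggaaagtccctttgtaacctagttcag
Irf1: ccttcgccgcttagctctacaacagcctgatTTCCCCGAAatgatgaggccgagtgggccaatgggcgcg
In Igtp and Tgtp2 a GAS-type and an ISRE-type match stood 2 bases apart. Gbp7 held 2 GAS-type matches and 1 ISRE-type match in reverse orientation, B2m held an ISRE-type match alone and Irf1 a GAS-type match alone. Among the interferon-inducible GTPases, 11 of 18 had a window, 10 of these held the ISRE-type sequence (90.9%) and 6 the GAS-type (54.5%). Of the genes of MHC class I and peptide loading, 18 of 22 had a window, of which 5 held the ISRE-type (27.8%) and 2 the GAS-type (11.1%). Of the type I interferon genes, 30 of 40 had a window, of which 15 held the ISRE-type (50%) and 6 the GAS-type (20%).

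MHC class II genes rose as a group in ECs of implanted tumours. Of 9 members tested, 7 were called higher and 0 lower, and the median log2 fold change was 3.43, beside -0.06 over all genes tested. The classical class II chain gene H2-Aa (chromosome 17, 34282744 to 34287823, mm10) was measured at 3.18 and 1.57 CPM in the spontaneous libraries and at 92.6 and 39.1 CPM in the implanted libraries, a log2 fold change of 4.23 ± 0.38 (adjusted p = 0.000197). Its partner H2-Ab1 stood at 4.78 and 8.84 CPM against 185 and 74.3 CPM (3.97 ± 0.38, adjusted p = 0.000281). H2-DMa, which helps to load peptides onto class II, was measured at 1.98 and 0.938 CPM against 41.4 and 16.5 CPM (3.5 ± 0.39, adjusted p = 0.000574). In each of the 7 called genes the 2 implanted libraries lay above the 2 spontaneous libraries.

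The class II transactivator Ciita, the master regulator of these genes, stood at 0.773 and 0.277 CPM in spontaneous and 20.3 and 7.57 CPM in implanted tumours (3.17 ± 0.39, adjusted p = 0.000975). The invariant chain Cd74 rose by 4.52 ± 0.34 (adjusted p = 8.53e-05). The other members called higher were H2-DMb1 and H2-DMb2. H2-Eb1, H2-Oa and H2-Ob did not reach 5 CPM in 2 libraries and were not tested, and Ifi30 was not found in any table. Since class II genes are also a property of macrophages and other antigen-presenting cells, the immune markers were summed in the same libraries. They added up to 44.0 and 38.0 CPM in spontaneous and to 44.6 and 32.6 CPM in implanted tumours, so that the groups overlapped. The rule for ECs selects against immune cells through Ptprc and Tyrobp, which are not on this list. In the cells removed by the rule the sums were 47.5 and 106 CPM in spontaneous and 508 and 928 CPM in implanted tumours, and the part of immune RNA in the class II values was not tested. Of the 12 immune markers tested, 1 was called (Plac8, higher) and 2 of the 32 listed were at 0 in all 4 PBS libraries.

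Most genes of antigen presentation on MHC class I were higher in ECs of implanted tumours. Of 22 members, 19 were called higher and 0 lower, and in 21 both implanted libraries lay above both spontaneous ones, an order found for 22.2% of all genes tested. The median log2 fold change was 1.08. Nlrc5, the transactivator of class I genes, was measured at 2.03 and 1.08 CPM against 20.4 and 13.8 CPM (2.82 ± 0.24, adjusted p = 0.000138). Tap1 (chromosome 17, 34187553 to 34197225), a chain of the peptide transporter, was at 31.9 and 27.6 CPM against 197 and 102 CPM (2.22 ± 0.23, adjusted p = 0.000400). Psmb9, a subunit of the immunoproteasome that cuts proteins into peptides, stood at 71.2 and 77.1 CPM against 294 and 222 CPM (1.77 ± 0.12, adjusted p = 7.97e-05).

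The class I heavy chain gene H2-K1 was measured at 969 and 988 CPM in spontaneous and 2562 and 2019 CPM in implanted tumours (1.22 ± 0.10, adjusted p = 0.000129). B2m, whose promoter is printed above, stood at 977 and 1192 CPM against 2648 and 2090 CPM (1.12 ± 0.12, adjusted p = 0.000452). H2-Q7, a nonclassical class I gene, rose by 2.03 ± 0.15 (adjusted p = 8.53e-05). The H2-Q and H2-K/D genes are close in sequence, so that reads could be split among them and the size of each one's change is uncertain.

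All 18 interferon-inducible GTPases tested were called higher, with log2 fold changes from 1.21 to 3.89 and a median of 2.48. These proteins attack the vacuoles of intracellular microbes. Gbp2 (chromosome 3, 142620602 to 142638008) was measured at 50.1 and 37.3 CPM in spontaneous and at 746 and 337 CPM in implanted tumours (3.51 ± 0.30, adjusted p = 0.000138). Igtp, an immunity-related GTPase, stood at 15.5 and 16.8 CPM against 221 and 110 CPM (3.20 ± 0.25, adjusted p = 8.53e-05). Tgtp2 was at 1.72 and 1.93 CPM against 25.9 and 17.3 CPM (2.97 ± 0.18, adjusted p = 3.58e-05). Summed over the list, the GTPases made up 493 and 494 CPM in the spontaneous libraries and 3978 and 2107 CPM in the implanted libraries. Members of the Gbp cluster and Tgtp1 and Tgtp2 are near copies, and the split of reads within each set is uncertain.

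Genes best known from the type I interferon response were also higher. Of 40 tested, 33 were called higher and 0 lower, with a median log2 fold change of 1.09. Ifi27l2a, which encodes a small mitochondrial membrane protein, had the lowest adjusted p of all genes tested, at 19.0 and 20.2 CPM in spontaneous and 172 and 147 CPM in implanted tumours (2.96 ± 0.13, adjusted p = 5.04e-06). Zbp1, a sensor of Z-form nucleic acid, was measured at 5.14 and 6.15 CPM against 91.1 and 47.1 CPM (3.33 ± 0.23, adjusted p = 8.05e-05). Isg15, a ubiquitin-like modifier, stood at 63.0 and 79.4 CPM against 299.7 and 189 CPM (1.74 ± 0.18, adjusted p = 0.000401). Irf7, which amplifies type I interferon production, rose by 1.75 ± 0.18 (adjusted p = 0.000400). The number called higher was 23 without replicate 1 of implanted PBS and 26 without replicate 2 of spontaneous PBS.

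**Figure D2:**
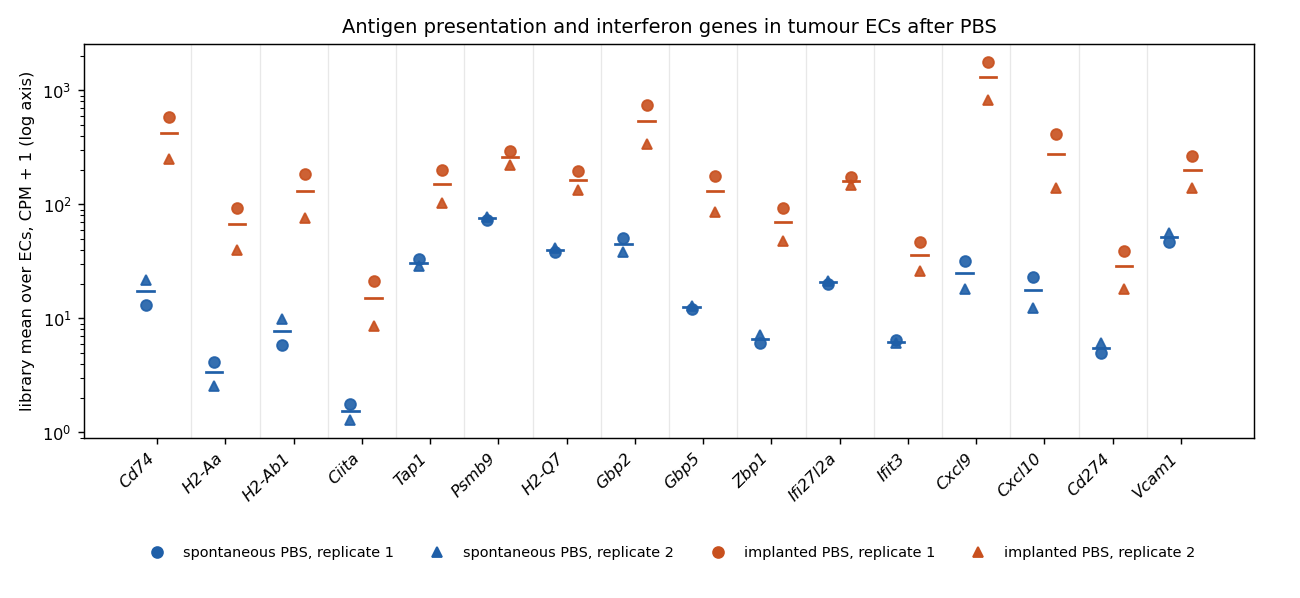
Points are the levels of interferon, antigen presentation and chemokine genes in the ECs of each PBS library, as CPM + 1 on a log axis, and bars are the means of the 2 libraries. For each gene drawn the 2 implanted libraries lie above the 2 spontaneous libraries.

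In the signalling chain itself, 6 of 17 genes were called higher and 0 lower, and these were the transducers and their targets rather than the receptors. Stat2 rose by 0.89 ± 0.12 (adjusted p = 0.00143) and Irf1 by 0.84 ± 0.14 (adjusted p = 0.00640), the latter from 88.1 and 94.6 CPM to 193 and 139 CPM. Socs1, a feedback inhibitor of JAK kinases, rose by 1.32 ± 0.16 (adjusted p = 0.000859), and Jak2 and Irf9 were also called. The interferon-gamma receptor chains were not called. Ifngr1 stood at 192 and 215 CPM against 164 and 167 CPM (-0.30 ± 0.08, adjusted p = 0.0588), and Ifngr2 at 32.0 and 37.7 CPM against 40.2 and 35 CPM (0.11 ± 0.15, adjusted p = 0.713). Ifng, the gene of interferon-gamma, did not reach 5 CPM in 2 libraries of ECs.

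Of 9 cytosolic DNA sensing genes tested, 2 were called higher: Samhd1, a nucleotide hydrolase (1.01 ± 0.15, adjusted p = 0.00331), and Ifi204, a DNA-binding protein (0.81 ± 0.13, adjusted p = 0.00433, and 0.055 without replicate 2 of spontaneous PBS). The genes that give cGAMP its known route were not called. Tmem173, which encodes STING, was measured at 75.6 and 73.8 CPM in spontaneous and 109 and 84.0 CPM in implanted tumours (0.35 ± 0.13, adjusted p = 0.145). Mb21d1, which encodes the cGAMP synthase cGAS, stood at 8.93 and 7.29 CPM against 8.69 and 11 CPM, so that the groups overlapped (0.25 ± 0.22, adjusted p = 0.559). The kinase Tbk1 was at 42.4 and 40.4 CPM against 35.9 and 33.4 CPM (-0.25 ± 0.10, adjusted p = 0.167).

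Among 17 chemokines and chemokine decoy receptors tested, 2 were called, both ligands of the T cell receptor CXCR3. Cxcl10 (chromosome 5, 92346638 to 92348889) was measured at 22.2 and 11.3 CPM in spontaneous and 410 and 138 CPM in implanted tumours (3.82 ± 0.41, adjusted p = 0.000465), and its neighbour Cxcl9 rose by 5.66 ± 0.32 (adjusted p = 2.15e-05). The monocyte chemokine Ccl2 stood at 8.41 and 9.34 CPM against 11.5 and 11 CPM (0.31 ± 0.40, adjusted p = 0.692). Ackr1, a decoy receptor of venules, was at 125 and 111 CPM against 211 and 197 CPM, which did not pass the test (0.79 ± 0.28, adjusted p = 0.128).

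Of the 9 checkpoint and costimulation genes tested, 5 were called higher and 0 lower. Cd274, which encodes the T cell inhibitor PD-L1, was measured at 3.97 and 5.03 CPM in spontaneous and 38.2 and 17.2 CPM in implanted tumours (2.28 ± 0.28, adjusted p = 0.000861). Lgals9, which encodes galectin-9, rose by 0.78 ± 0.10 (adjusted p = 0.00124). Tnfsf10, the death ligand TRAIL, rose by 0.90 ± 0.17 (adjusted p = 0.0105, and 0.072 without replicate 1 of spontaneous PBS). Cd47 and the ubiquitin-like gene Ubd were the other members called.

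Leukocyte adhesion genes did not move as a group: of 15 tested, 2 were called higher and 0 lower, and the median was -0.05. Vcam1, which binds the integrin VLA-4 on lymphocytes, was measured at 45.6 and 55.4 CPM in spontaneous and 264 and 138 CPM in implanted tumours (1.91 ± 0.24, adjusted p = 0.00112). Icam1 stood at 121 and 115 CPM against 166 and 158 CPM (0.45 ± 0.10, adjusted p = 0.0281), and its call was lost without any 1 of the 4 PBS libraries (adjusted p = 0.085 to 0.19). The selectins were not called, with Sele at 40.8 and 34.2 CPM against 31.3 and 27.4 CPM (-0.34 ± 0.25, adjusted p = 0.456) and Selp at 200.1 and 210.2 CPM against 265 and 231 CPM (0.27 ± 0.22, adjusted p = 0.510).

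Of 24 TNF and NF-kB genes, 2 were called higher and 0 lower, with a median of 0.07, where 3.34% of all genes tested were called higher. In 11 both implanted libraries lay above both spontaneous ones and in 5 below, orders found for 22.2% and 35.6% of all genes tested. The 2 called genes were Il6 (1.13 ± 0.22, adjusted p = 0.0136) and the necroptosis kinase Ripk3 (0.60 ± 0.15, adjusted p = 0.0376). Neither was called without replicate 2 of spontaneous PBS (adjusted p = 0.094 and 0.27) or without replicate 1 of implanted PBS (0.12 and 0.24). The receptor Tnfrsf1a stood at 264 and 263 CPM against 255 and 247 CPM (-0.07 ± 0.08, adjusted p = 0.644). Of 17 pro-apoptotic genes, Cycs was called higher and Pmaip1 lower, and both lost the call without replicate 2 of spontaneous PBS (adjusted p = 0.19 for both). The caspase gene Casp8 stood at 105 and 111 CPM against 113 and 108 CPM (0.03 ± 0.08, adjusted p = 0.853). Bcl2, the founding inhibitor of apoptosis, was lower in implanted tumours at 29.7 and 24.2 CPM against 50.9 and 60.3 CPM (-1.02 ± 0.15, adjusted p = 0.00302), the only one of 7 anti-apoptotic genes called.

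Insulin receptor expression was lower in the implanted endothelium. Insr (chromosome 8, 3122061 to 3279617) was measured at 333 and 383 CPM in spontaneous and 167 and 173 CPM in implanted tumours (-1.07 ± 0.09, adjusted p = 0.000140). It is 1 of 4 genes called lower among the 27 PI3K-AKT pathway genes tested, none being called higher, and in 16 of the 27 both implanted libraries lay below both spontaneous ones, an order found for 35.6% of all genes tested. The others were Igf1r (-0.60 ± 0.12, adjusted p = 0.0143), Rictor (-0.50 ± 0.10, adjusted p = 0.0149) and Inpp5d (-0.48 ± 0.11, adjusted p = 0.0316). Without replicate 2 of spontaneous PBS, or without replicate 1 of implanted PBS, 1 member of the list was called. Akt1 stood at 130 and 129 CPM against 125 and 146 CPM, so that the groups overlapped (0.06 ± 0.09, adjusted p = 0.747). The AKT target Foxo1 was at 132 and 139 CPM against 115 and 121 CPM (-0.20 ± 0.09, adjusted p = 0.203).

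**Figure D3:**
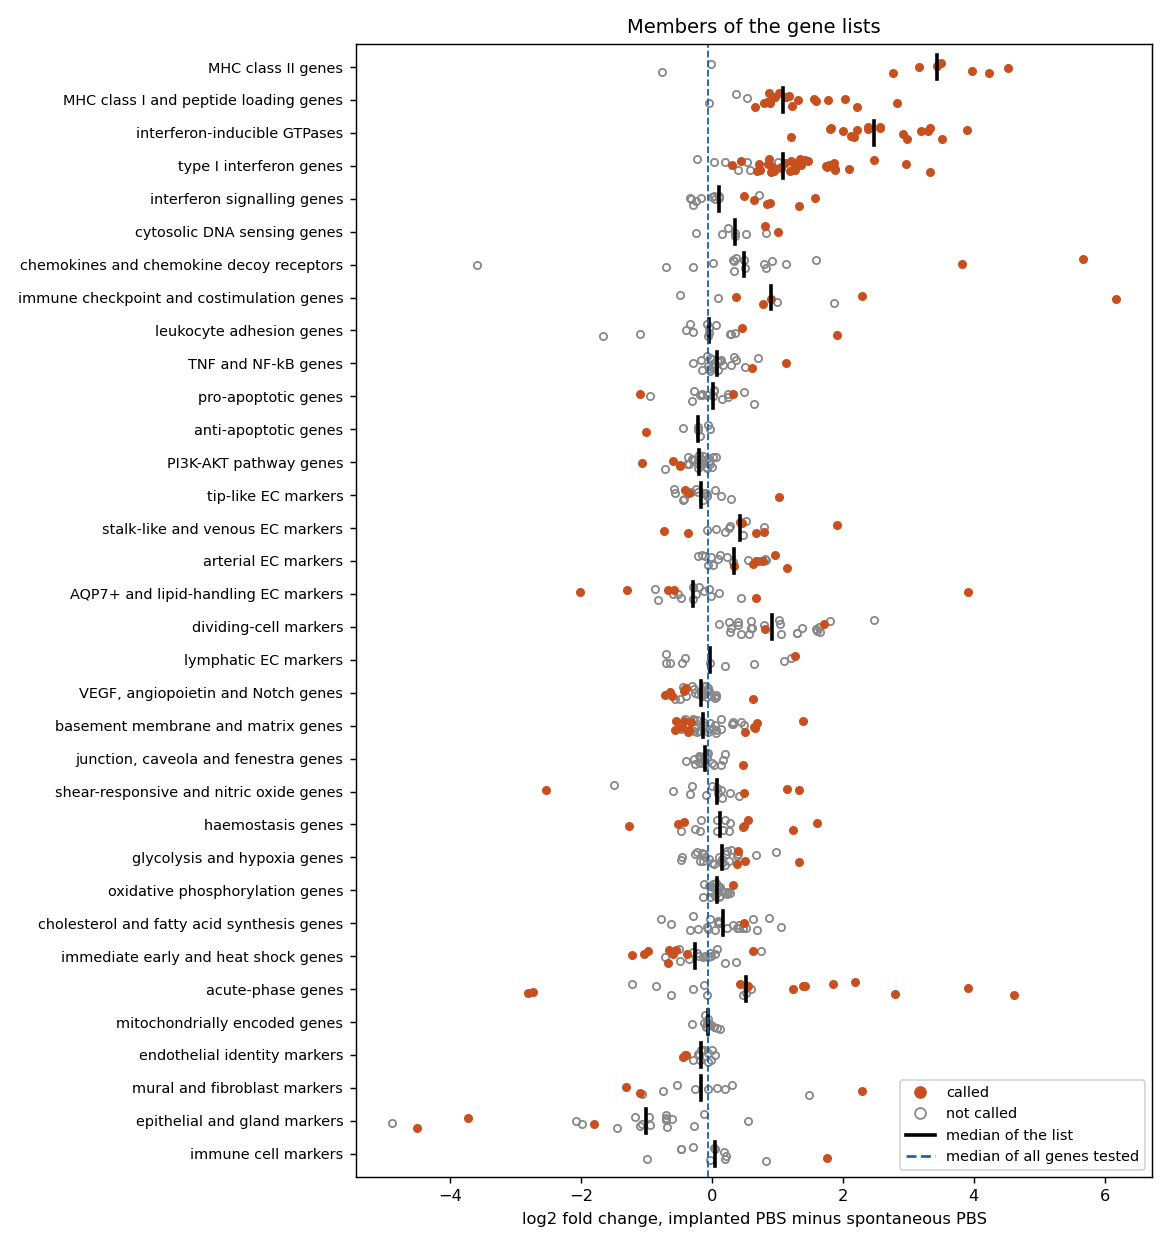
Each point is a tested member of a gene list with its log2 fold change, implanted relative to spontaneous after PBS, filled where it was called, and black bars are the medians of the lists. MHC class II genes (median 3.43) and the interferon-inducible GTPases (2.48) stand farthest above the dashed line at the median of all genes tested (-0.06).

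Some receptors of vessel growth were among the genes called lower. Of 31 VEGF, angiopoietin and Notch genes tested, 6 were called lower and 1 higher, with a median of -0.16, against 4.06% and 3.34% of all genes tested. With median-of-ratios scaling 4 were called lower. In 13 of the 31 both implanted libraries lay below both spontaneous ones, an order found for 35.6% of all genes tested. Nrp2, a VEGF and semaphorin co-receptor, was measured at 288 and 301 CPM in spontaneous and 181 and 178 CPM in implanted tumours (-0.71 ± 0.08, adjusted p = 0.000701). Nrp1 fell by 0.61 (SE 0.11, adjusted p = 0.0110), Aplnr, the apelin receptor, by 0.65 (SE 0.12, adjusted p = 0.0122), and the Notch ligand Dll4 by 0.41 (SE 0.10, adjusted p = 0.0292). Nrp1 lost the call in fits that left out spontaneous PBS replicate 2 or implanted PBS replicate 1 (adjusted p = 0.12 and 0.093). Aplnr lost it when spontaneous PBS replicate 1 or implanted PBS replicate 2 was left out (0.085 and 0.081), and Dll4 when spontaneous PBS replicate 2 or either implanted PBS library was (0.11 to 0.24). Nrp2 was called in each of these fits. Jag1, the Notch ligand called higher (0.63 ± 0.16, adjusted p = 0.0399), lost the call without any 1 of the 4 PBS libraries (0.066 to 0.27). Kdr, the main VEGF receptor, stood at 618 and 788 CPM against 631 and 622 CPM, with overlap (-0.16 ± 0.12, adjusted p = 0.483).

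Tip-like markers, which are high in the cells that lead a vascular sprout, showed no common shift. Of 18 tested, 1 was called higher (Mest, 1.02 ± 0.17, adjusted p = 0.00608) and 2 lower (Dll4 and Plxnd1). Mest was not called without replicate 2 of spontaneous PBS (adjusted p = 0.079). Plxnd1 (-0.36 ± 0.08, adjusted p = 0.0244) was not called without either spontaneous PBS library or without implanted PBS replicate 2 (0.11 to 0.16). Pgf, a VEGF family ligand, was measured at 18.3 and 9.32 CPM in spontaneous and 18.6 and 9.87 CPM in implanted tumours (0.05 ± 0.42, adjusted p = 0.961). Apln, the apelin ligand, stood at 93.9 and 77.6 CPM against 95.0 and 68.7 CPM (-0.08 ± 0.19, adjusted p = 0.851). Esm1 was at 92.0 and 192 CPM against 107 and 87.9 CPM (-0.45 ± 0.31, adjusted p = 0.418), where the replicates of the spontaneous tumours were farther apart than the groups.

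Arterial markers were higher in part. Of 20 tested, 6 were called higher and 0 lower, with a median of 0.33, and 2 were called without replicate 2 of spontaneous PBS. Edn1, the vasoconstrictor endothelin-1, was measured at 79.3 and 77.2 CPM in spontaneous and 159 and 191 CPM in implanted tumours (1.14 ± 0.17, adjusted p = 0.00254). Eln, elastin, stood at 154 and 138 CPM against 270 and 302 CPM (0.97 ± 0.11, adjusted p = 0.000791). Gja5, the arterial gap junction gene, was at 57.5 and 46.6 CPM against 93.4 and 86.2 CPM (0.78 ± 0.12, adjusted p = 0.00437, and 0.053 without replicate 2 of spontaneous PBS). Of 15 stalk-like and venous markers, 5 were called higher and 2 lower. Leaving out replicate 2 of spontaneous PBS, or replicate 1 of either group, left 1 called higher, Vcam1. Tshz2 was lower at 232 and 230 CPM against 362 and 412 CPM (-0.74 ± 0.10, adjusted p = 0.00197).

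Capillary and lipid-handling markers, those of AQP7+ ECs, went both ways: 2 of 20 were called higher and 4 lower, with a median of -0.29. Car4, a membrane carbonic anhydrase of capillaries, was measured at 3.42 and 11.1 CPM in spontaneous and 204 and 58.2 CPM in implanted tumours (3.92 ± 0.68, adjusted p = 0.00720), with adjusted p = 0.059 without replicate 1 of spontaneous PBS and 0.061 without replicate 1 of implanted PBS. Timp4, a metalloproteinase inhibitor, stood at 10.1 and 13.7 CPM against 1.56 and 2.88 CPM (-2.02 ± 0.33, adjusted p = 0.00541). Btnl9 was at 157 and 222 CPM against 64.9 and 87.4 CPM (-1.30 ± 0.24, adjusted p = 0.00975). Timp4 and Btnl9 were not called without spontaneous PBS replicate 2 (adjusted p = 0.081 and 0.12) or implanted PBS replicate 1 (0.057 and 0.086). Pparg, a regulator of lipid metabolism, and the water channel gene Aqp1 were the others called lower. Aqp7 itself was at 9.54 and 20.2 CPM against 11.2 and 11.1 CPM, with overlap (-0.29 ± 0.30, adjusted p = 0.612).

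**Figure D4:**
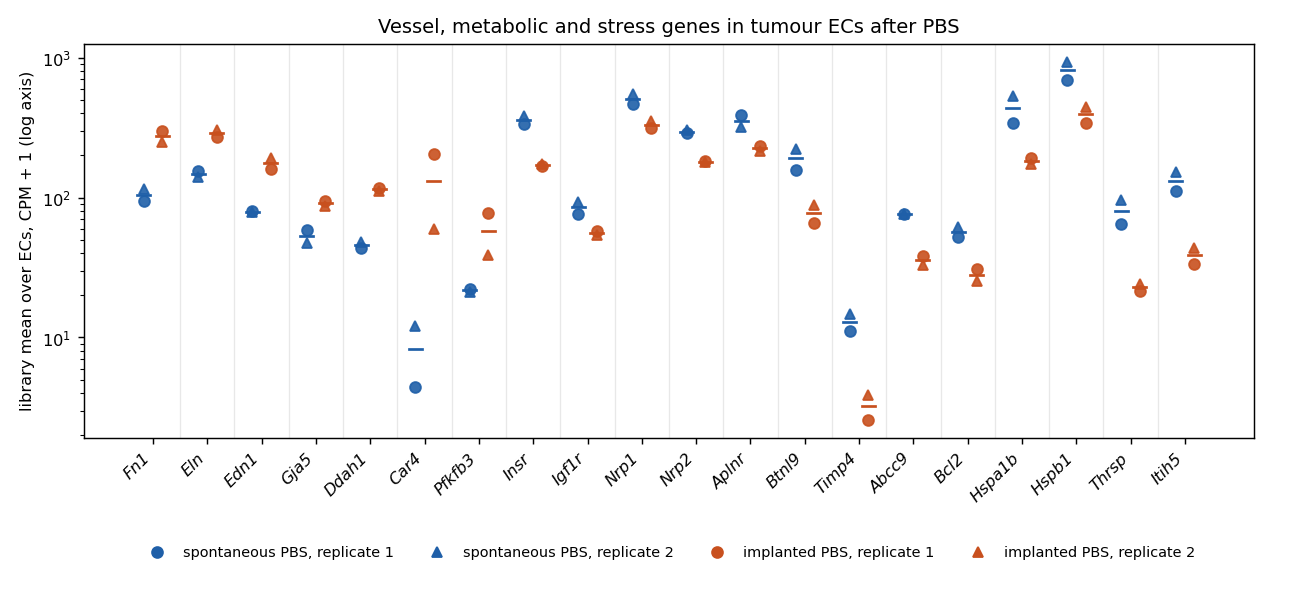
Points are the levels of vessel, metabolic and stress genes in the ECs of each PBS library, as CPM + 1 on a log axis, and bars are the means of the 2 libraries. Fn1 and Edn1 are higher and Insr and Nrp2 lower in both implanted libraries than in both spontaneous ones.

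Matrix genes shifted in both directions, with 5 of 39 called higher and 7 lower. Fn1 (chromosome 1, 71585520 to 71653200), which encodes fibronectin, was measured at 93.3 and 114 CPM in spontaneous and 299.7 and 247 CPM in implanted tumours (1.39 ± 0.20, adjusted p = 0.00209). The intermediate filament gene Vim stood at 3879 and 3530 CPM against 6138 and 5821 CPM (0.69 ± 0.11, adjusted p = 0.00358). The 7 called lower were Lamb1, Lamc1, Sparc, Timp3, Plod1, Itga2 and Itga6, among them 2 laminin chains of the basement membrane, and without replicate 2 of spontaneous PBS limma called 0 lower (8 at an unadjusted p under 0.05). Among 16 shear-responsive and nitric oxide genes, 3 were called higher and 1 lower, against 3.34% and 4.06% of all genes tested. The gene called lower was Cyp1b1 (-2.54 ± 0.65, adjusted p = 0.0432), which lost the call with a pseudocount of 5 CPM and with summed UMIs, among other alternatives. The genes called higher included Ddah1, which clears an inhibitor of nitric oxide synthase, at 42.4 and 47.4 CPM against 117 and 111 CPM (1.32 ± 0.15, adjusted p = 0.000701). Cavin1, a caveola coat gene, was called higher (0.47 ± 0.07, adjusted p = 0.00352), the only call among 20 junction, caveola and fenestra genes.

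Of 18 haemostasis genes, 5 were called higher and 3 lower, and without spontaneous PBS replicate 2 limma called 2 in all, both higher. S100a10, which binds plasminogen with annexin A2, was measured at 545 and 499 CPM in spontaneous and 763 and 762 CPM in implanted tumours (0.55 ± 0.08, adjusted p = 0.00261). The coagulation factor gene F8 stood at 18.7 and 22.9 CPM against 9.35 and 6.86 CPM (-1.27 ± 0.25, adjusted p = 0.0144), with adjusted p = 0.13 without spontaneous PBS replicate 2, 0.10 without implanted PBS replicate 2 and 0.13 without cells bearing lymphatic markers. Serpine2, a thrombin inhibitor, was at 7.46 and 8.55 CPM against 29.5 and 23.3 CPM (1.60 ± 0.16, adjusted p = 0.000393). Without cells bearing lymphatic markers its log2 fold change was 0.26 (adjusted p = 0.76), and over all deposited cells it was -0.74. Such cells, with UMIs of at least 2 of 7 lymphatic genes including Prox1 and Lyve1, made up 4.81% and 8.41% of spontaneous and 7.48% and 6.06% of implanted ECs.

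Of 29 glycolysis and hypoxia genes, 4 were called higher and 0 lower, with a median of 0.15, where 3.34% of all genes tested were called higher. The count was 7 with median-of-ratios scaling, 1 or 2 when spontaneous PBS replicate 1 or either implanted PBS library was left out, and limma called 0 without replicate 2 of spontaneous PBS (8 at an unadjusted p under 0.05). Pfkfb3, which makes an activator of glycolysis and is used by sprouting ECs, was measured at 21.3 and 20.2 CPM in spontaneous and 76.0 and 37.8 CPM in implanted tumours (1.33 ± 0.24, adjusted p = 0.00943, and 0.087 without replicate 2 of spontaneous PBS). Of 22 oxidative phosphorylation genes and 24 cholesterol and fatty acid synthesis genes, 1 each was called, Cycs and Fdps. The 13 mitochondrially encoded genes gave 0 calls by limma, and 0 at an unadjusted p under 0.05, and the median mitochondrial share of UMIs was 4.23% to 4.47% in the 4 libraries.

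Of 26 immediate early and heat shock genes, which also respond to tissue dissociation, 8 were called lower and 1 higher, with a median of -0.26. Without spontaneous PBS replicate 2 the count called lower was 4, without implanted PBS replicate 1 it was 5, and with no filter on low values it was 3. Hspb1 was measured at 690 and 931 CPM in spontaneous and 342 and 443 CPM in implanted tumours (-1.04 ± 0.14, adjusted p = 0.00183). Hspa1a stood at 557 and 727 CPM against 316 and 327 CPM (-0.98 ± 0.11, adjusted p = 0.000690), and its near copy Hspa1b moved alike (-1.22 ± 0.20, adjusted p = 0.00485), though reads may be split between the pair. Jund, an AP-1 subunit, was lower by the same test (-0.68 ± 0.11, adjusted p = 0.00636), with adjusted p = 0.081 without replicate 2 of spontaneous PBS and 0.064 without replicate 1 of implanted PBS.

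Acute-phase genes contained both strong increases and strong decreases: 11 of 22 were called higher and 2 lower. Serpina3g, a protease inhibitor, was measured at 4.77 and 6.79 CPM in spontaneous and 281 and 95.1 CPM in implanted tumours (4.62 ± 0.38, adjusted p = 0.000130), and Serpina3f rose by 3.92 ± 0.38 (adjusted p = 0.000295). Both belong to a cluster of near copies. The serum amyloid genes Saa1 and Saa2 were the members called lower. Without replicate 2 of spontaneous PBS 5 members were called higher and 0 lower, and without replicate 1 of either group 4 were called higher.

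Of 20 epithelial and gland markers tested, 3 were called lower and 0 higher, with a median of -1.02. Leaving out spontaneous PBS replicate 2 or either implanted PBS library left 1 call. In 16 both implanted libraries were below both spontaneous ones, an order found for 35.6% of all genes tested. The markers summed to 1270 and 1815 CPM in the spontaneous libraries and to 942.5 and 760 CPM in the implanted libraries. Lalba, the milk protein alpha-lactalbumin, was measured at 45.8 and 32.9 CPM in spontaneous and 10.9 and 9.90 CPM in implanted tumours (-1.81 ± 0.32, adjusted p = 0.00901), with adjusted p = 0.069 without replicate 1 of spontaneous PBS and 0.057 without replicate 2 of implanted PBS. Scgb2b27, a secretoglobin, stood at 21.7 and 283 CPM against 2.80 and 2.29 CPM (-4.50 ± 1.0, adjusted p = 0.0247), so that replicate 2 of spontaneous PBS carried most of it. It was not called without that library (adjusted p = 0.15), nor without either implanted PBS library (0.11 for both).

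The keratin gene Krt18 was at 40.1 and 28.5 CPM in spontaneous and 19.5 and 14.6 CPM in implanted tumours (-0.96 ± 0.59, adjusted p = 0.365). How far RNA from other cells added to the levels of any gene in ECs was not tested. The genes that were lower alongside them included Thrsp, a regulator of fat synthesis, at 63.7 and 94.6 CPM against 20.6 and 23.3 CPM (-1.78 ± 0.17, adjusted p = 0.000317). Itih5, a hyaluronan-binding protein gene, was at 111 and 152 CPM against 32.7 and 42.5 CPM (-1.77 ± 0.31, adjusted p = 0.00755), with adjusted p = 0.095 without replicate 2 of spontaneous PBS and 0.069 without replicate 1 of implanted PBS. Of 12 mural and fibroblast markers tested, Dcn was called higher, and Kcnj8 and Abcc9, which encode a potassium channel and its regulatory subunit, were called lower. Abcc9 was measured at 74.8 and 75.8 CPM against 37.5 and 32.0 CPM (-1.10 ± 0.11, adjusted p = 0.000334). The mural and fibroblast markers summed to 272 and 220 CPM in spontaneous and to 249 and 243 CPM in implanted tumours. The rule for ECs selects against mural cells through Rgs5 and Pdgfrb, which are not on this list.

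Of 15 endothelial identity markers, 3 were called lower and 0 higher, with a median of -0.17. They were Tek, the angiopoietin receptor (-0.39 ± 0.08, adjusted p = 0.0195), Emcn, a sialomucin of capillaries and veins (-0.45 ± 0.08, adjusted p = 0.0122), and Cd93 (-0.42 ± 0.07, adjusted p = 0.00479). Tek lost its call without any 1 of the 4 PBS libraries (adjusted p = 0.065 to 0.11), Emcn without replicate 1 of either group (0.083 and 0.10) and Cd93 without replicate 2 of spontaneous PBS (0.055). Of 11 lymphatic markers, 1 was called (Fxyd6, higher), with a median of -0.03.

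Some genes on none of the lists were chosen after their values were seen. Apoe, a lipid carrier, was measured at 668 and 829.5 CPM in spontaneous and 288 and 352 CPM in implanted tumours (-1.22 ± 0.13, adjusted p = 0.000514). Ednrb, the endothelin B receptor, stood at 286 and 368 CPM against 137 and 158 CPM (-1.13 ± 0.13, adjusted p = 0.000735), whereas its ligand gene Edn1 was higher, as given above. Fjx1, a secreted Four-jointed family protein, was at 3.77 and 7.74 CPM against 43.9 and 46.8 CPM (2.84 ± 0.41, adjusted p = 0.00250).

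More ECs of implanted tumours bore the markers of dividing cells. The share with UMIs of at least 2 of the 6 genes Mki67, Top2a, Cenpf, Birc5, Ube2c and Cdk1 was 9.06% and 6.95% in spontaneous and 12.9% and 16.2% in implanted tumours. After thinning each EC with at least 3000 UMIs to that number it was 4.96% (95% Wilson interval 3.62 to 6.76) and 2.32% (1.30 to 4.11) against 7.40% (5.81 to 9.39) and 9.30% (7.62 to 11.3). Thinning left 746 and 474 spontaneous and 824 and 957 implanted ECs and set aside 148 and 73 against 125 and 99 shallower ones. Of 26 dividing-cell genes, 24 were higher in both implanted libraries than in both spontaneous ones, an order found for 22.2% of all genes tested. Of the list 2 were called, Stmn1 and Tk1, and the median over the list was 0.91. The count called was 9 with a pseudocount of 5 CPM or without spontaneous PBS replicate 1, and 11 with the 4 PBS libraries alone or without either implanted cGAMP library. The proliferation marker Mki67 was measured at 20.5 and 23.6 CPM against 48.0 and 46.0 CPM (1.06 ± 0.56, adjusted p = 0.289). Neither Stmn1 nor Tk1 was called without replicate 2 of spontaneous PBS, nor without either implanted PBS library. In a fit without dividing cells 14 of the list were tested and limma called 0 (2 at an unadjusted p under 0.05). Because the cells left out were chosen by UMIs of dividing-cell genes, lower levels on this list were built into that fit, and no conclusion is drawn from it.

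A mean over ECs does not tell whether more cells or more RNA per cell carried a gene, so shares of cells with a UMI were taken in the thinned ECs. Cd74 was found in 2.55% (95% Wilson interval 1.64 to 3.94) and 1.69% (0.858 to 3.29) of spontaneous and in 28.6% (25.7 to 31.8) and 15.6% (13.4 to 18.0) of implanted ECs. Cxcl9 was found in 4.69% (3.39 to 6.46) and 2.95% (1.77 to 4.90) against 31.4% (28.4 to 34.7) and 19.2% (16.9 to 21.8). The intervals cover counting error only.

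Gbp2 was found in 11% ± 0.35 (SD, n = 2) of spontaneous and 38.3% ± 12 of implanted ECs, and Psmb9 in 18.6% ± 0.39 against 46.0% ± 5.3. Before thinning these shares were 27.8% ± 1.2 against 58.0% ± 7.8, and 41.1% ± 0.52 against 73.5% ± 1.9, and for Cd74 4.40% ± 0.27 against 28.9% ± 9.9. Fn1 was found in 10.1% ± 1.1 against 29.6% ± 2.8 and Edn1 in 11.7% ± 0.20 against 23.5% ± 0.14 of thinned ECs. Insr was found in 54.2% ± 2.5 against 33.5% ± 0.91 and Apoe in 58.3% ± 0.43 against 30.3% ± 0.53. Unthinned, the shares were 14.3% and 41.5% for Fn1, 17.5% and 37.2% for Edn1, 69.9% and 61.5% for Insr and 74.7% and 47.2% for Apoe.

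Free RNA can put UMIs into cells that do not express a gene, and a cell type without the gene serves as the usual comparator. Cells with no Pecam1 and no Cdh5 UMI, at least 1 other-cell marker and at least 3000 UMIs numbered 1 and 25 in the spontaneous libraries and 0 and 0 in the implanted libraries, so no such comparator was at hand for the implanted ECs. Of the 25, all had Rgs5 or Pdgfrb, 1 carried Cd74, 0 carried Cxcl9 (which allows a share of up to 12%) and 20 carried Scgb2b27 (80.0%, not thinned). In the ECs of the same library Scgb2b27 was found in 74.6% before and 34.4% (95% Wilson interval 30.3 to 38.8) after thinning, against 4.16% of thinned ECs in replicate 1 of spontaneous PBS and 0.364% and 0.731% in implanted tumours. In the 88 cells of that library that the rule for ECs had removed and that had at least 3000 UMIs, the thinned share was 36.4%. The share in its ECs was therefore not read as expression by ECs, and where this RNA came from was not tested. Removed cells of that depth carried Cd74 on average in 5.03% (thinned) in spontaneous and 18.5% in implanted tumours. For Cxcl9 these shares were 5.52% and 22.7%, and for Psmb9 19.0% and 46.9%. Most of these cells carried Cdh5, as given above, so they do not serve as a cell type without the genes. How far free RNA added to the shares of these genes in ECs was not tested.

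The interferon difference was present in subsets of ECs that carried a UMI of a vessel gene, given here as values with no test. In ECs with a Selp UMI, which marks venules, the mean Cd74 level was 676 CPM in implanted against 4.37 CPM in spontaneous tumours. It was 162 against 2.36 CPM in ECs with a Gja5 UMI, 602 against 16.7 CPM in ECs with a Pgf UMI and 437 against 16.8 CPM in dividing ECs. In each of these subsets both implanted libraries lay above both spontaneous ones for Cd74, Cxcl9, Gbp2, Psmb9, H2-K1 and Ifi27l2a, and below them for Insr and Apoe. In ECs with a Prox1 UMI, which marks lymphatics, Cd74 was 183 against 92.2 CPM and Cxcl9 was 253 against 116 CPM, and the libraries overlapped. There Gbp2 did not overlap, at 470 against 73.2 CPM. The subsets held 25 to 301 ECs per library.

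To see which differences between models were also found after STING activation, the same comparison was read in the cGAMP libraries. It gave 1298 calls (12.6% of genes tested), and the difference between the model effect after PBS and after cGAMP was itself called for 82 genes (0.793%). Replicate 1 of implanted cGAMP was shallow, with a median of 2014 UMIs per cell. For MHC class II genes the median log2 fold change was 3.43 after PBS and 0.80 after cGAMP, with 6 of 9 called for the difference. For the GTPases it was 2.48 and 0.59 (11 of 18 called), for class I genes 1.08 and 0.34 (8 of 22), and for type I interferon genes 1.09 and 0.42 (10 of 40).

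The Ifi27l2a level was 420 and 520 CPM in spontaneous and 726 and 899 CPM in implanted tumours after cGAMP, above all 4 PBS libraries (19.0 to 172 CPM). Its model effect was 2.96 after PBS and 0.79 ± 0.13 after cGAMP, a difference of 2.17 ± 0.18 (adjusted p = 0.00155). Psmb9 behaved alike, with 391 and 426 against 495 and 542 CPM after cGAMP and a difference of 1.43 ± 0.17 (adjusted p = 0.0125). A gene that was not called for this difference was not thereby shown to be alike after both injections. Timp4 was -2.02 after PBS and 0.39 after cGAMP (adjusted p of the difference = 0.054), and Cyp1b1 was -2.54 and 1.38 (0.10). Some other non-interferon genes were closer in size. Fjx1 was 2.84 higher after PBS and 2.49 after cGAMP (adjusted p of the difference = 0.84), and Apoe was -1.22 and -1.37 (0.80). The number of genes called for the difference was 2 to 13 when any 1 of the 4 spontaneous libraries was left out and 40 without replicate 1 of implanted PBS.

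**Figure D5:**
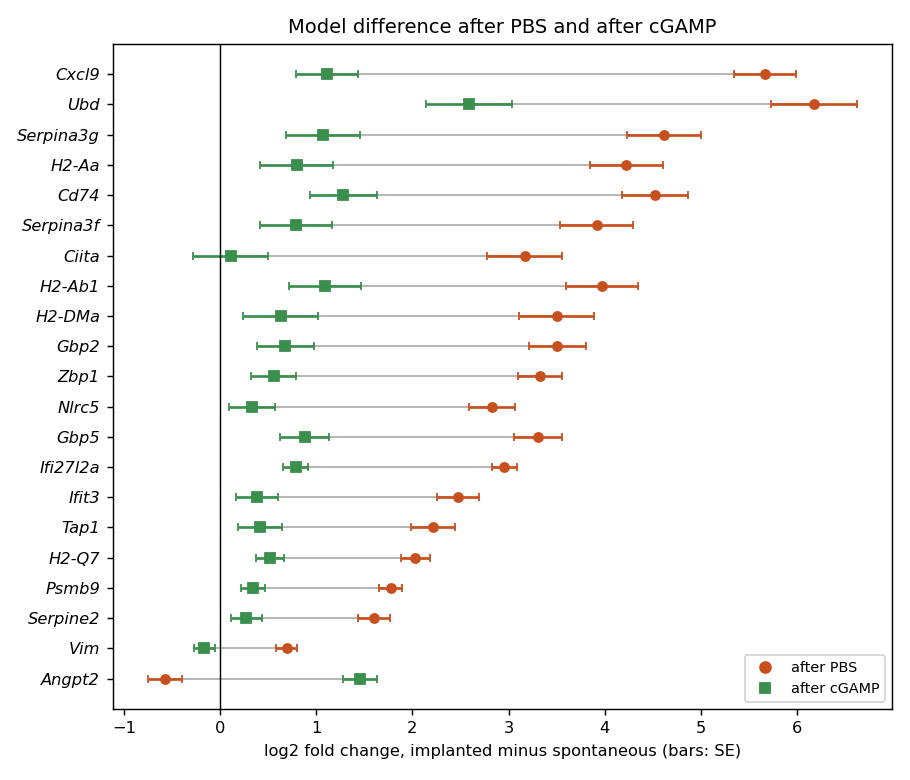
For 21 named genes with a called difference, the log2 fold change, implanted relative to spontaneous, is drawn after PBS (circles) and after cGAMP (squares), with bars for the standard error. For 20 of them the value after PBS is the higher one, as for Ifi27l2a (2.96 against 0.79), and for Angpt2 it is the lower one.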

How the data were processed

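Single-cell RNA-seq libraries of sorted tumour ECs were analysed from the deposited processed tables, 1 per library, with groups taken from the labels. The authors aligned reads to mm10 with Cell Ranger 3.0.0, used Seurat 3.1.1 (versions per the submitters' processing notes) and kept cells of at least 500 genes with up to 10% mitochondrial transcripts, and genes seen in at least 3 cells. A gene absent from a library's table was therefore set to 0. The values as deposited are natural log values per cell, ln(1 + UMIs × 10000 / total UMIs), in which each cell summed to 10000 after back-transformation. UMIs were worked back from them and were whole within 0.01 for 100% of values. How the deposited cells relate to the cell numbers in the study's supplement is not settled.

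Library means over ECs were tested as log2(CPM + 1) with limma 3.58.1 (eBayes with trend, R 4.3.3) in 1 fit of 8 libraries and 4 groups, after a filter that asked for 5 CPM or more in 2 or more libraries. Contrasts were implanted against spontaneous after PBS, after cGAMP, and the difference between these effects. With 2 libraries a group, a gene's error rests largely on the spread shared by all groups. Named genes were up to 12 with the largest called increase and decrease at a mean of at least 10 CPM with no overlap of libraries, up to 4 per list, and genes of the study's question. B2m, H2-K1, Igtp, Tgtp2, Isg15, Irf7, Ccl2, Krt18, Apoe, Ednrb and Fjx1 were named after their values were seen. The members and the 35 lists were chosen with earlier results of these data known. Alternatives were another scaling, a pseudocount of 5 CPM, no filter, summed UMIs, the 4 PBS libraries alone, a replicate block, stricter and looser cell rules, cells thinned to 3000 UMIs, and leaving out each library. A fit without 1 library leaves its group with 1, assumed to vary like the others. Gene coordinates are GENCODE vM21 (GRCm38, the assembly of mm10), promoter sequences RefSeq. No doublet caller was run; the marker rule removes cells with markers of other types only. 0 sample columns were left unused. Replicates of each group differed by more than sampling noise (chi-square per degree of freedom 3.78 to 11.7). Some genes are not reported here.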

Additional observations from a re-analysis of the deposited data

Results flagged for a closer look

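For 21 named genes the difference between implanted and spontaneous tumours was not the same after PBS and after cGAMP, by limma's test of that difference (adjusted p under 0.05 over all genes tested). The values below are the log2 fold change after PBS minus that after cGAMP. In antigen presentation they were 3.24 for Cd74, 3.43 for H2-Aa, 2.88 for H2-Ab1, 2.87 for H2-DMa and 3.06 for Ciita in class II, and 2.49 for Nlrc5, 1.80 for Tap1, 1.51 for H2-Q7 and 1.43 for Psmb9 in class I. For other interferon-induced genes they were 4.55 for Cxcl9, 3.59 for Ubd, 2.83 for Gbp2, 2.43 for Gbp5, 2.77 for Zbp1, 2.17 for Ifi27l2a and 2.09 for Ifit3. The protease inhibitors Serpina3g and Serpina3f gave 3.54 and 3.13, Serpine2 gave 1.33 and the filament gene Vim gave 0.86. Angpt2, the antagonist ligand of Tek, was the only one of these with a negative value, -2.03, having been measured at 69.6 and 86.9 CPM in spontaneous and 64.5 and 42.0 CPM in implanted tumours after PBS.

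Each of the 21 kept its sign under all 18 alternatives run for this difference, but not its call. Cxcl9 and Ifi27l2a passed the threshold under 16 of 18, Psmb9 under 15, H2-DMa under 5 and Ciita and Serpine2 under 6. The call of all 21 was lost without the filter on low values. In libraries of 2 per group no sample could be checked as an outlier.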

How the results depend on the processing

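The number of genes called after PBS (765) was 323 of 18510 with no filter on low values, 1367 with UMIs summed per library and 239 to 1109 when 1 library was left out (239 without replicate 2 of spontaneous PBS). The share of calls higher in implanted tumours (45.1%) was 63.2% with median-of-ratios scaling and 41.0% to 71.5% with 1 library left out. The 82 calls for the difference between PBS and cGAMP became 0 by limma with no filter (1892 genes at an unadjusted p under 0.05), 43 over all deposited cells and 2 to 127 with 1 library left out. Thinned cells gave a dividing share of 8.35% in implanted and 3.64% in spontaneous tumours, against 14.5% and 8.0%. Deviations of same-numbered libraries correlated at -0.156 to 0.153 over the pairs of groups (-0.132 between the PBS groups), so the numbers were taken as names only, and a replicate block gave 766 and 82 calls. A crossed pairing of the 4 PBS libraries, chosen after seeing the data, gave 1390 calls against 714 with same-number pairs and 1089 without a block. Of 100 named called genes, 42 kept direction and call under every alternative, 46 lost the call when replicate 2 of spontaneous PBS was left out, 40 when replicate 1 of implanted PBS was, and 48 with no filter. The cause was not tested.

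The sign turned for 2 called genes over all deposited cells, Serpine2 (-0.738) and Serping1 (-0.508), against 1.44 to 1.76 and 0.566 to 1.91 with 1 library left out. For genes that were not called, the ranges given are those with 1 library left out. The sign turned for Lst1 (-0.0438 summed, range -0.0573 to 0.119), Fcer1g (range -0.616 to 1.05), Hbb-bs (0.00981 with median-of-ratios scaling, 0.138 with a pseudocount of 5, 0.311 summed, 0.216 under the strict cell rule, 0.139 over all cells, range -1.44 to 1.36) and Hba-a1 (-0.162 over all cells, -0.0357 without dividing cells, -0.81 without lymphatic-marker cells, -0.256 thinned, range -0.874 to 1.01). It also turned for Ifngr2 (-0.0437 over all cells, -0.118 thinned, range -0.0076 to 0.224), Casp8 (range -0.00388 to 0.0676), Mb21d1 (-0.0934 without dividing cells), Pgf (-0.0731 under the strict rule, range -0.401 to 0.499), Apln (0.0496 summed, 0.0771 thinned, range -0.308 to 0.153), Esm1 (range -0.973 to 0.0764), Kdr (range -0.331 to 0.0199), Aqp7 (0.115 summed, range -0.797 to 0.209), Top2a (-0.30 without dividing cells) and Akt1 (range -0.0528 to 0.175).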

Other observations

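The 2 implanted PBS libraries were not alike in their interferon genes. Of the called genes at least 2-fold higher in implanted tumours, 61 were on an interferon or antigen presentation list, and replicate 1 was above replicate 2 in 61 of 61, with a median ratio of 1.59. Of the other 120, replicate 1 was the higher in 88, with a median ratio of 1.28. Among the 59 called genes at least 2-fold lower it was the higher in 25, with a median ratio of 0.946. Replicate 1 had a slightly lower depth than replicate 2, with median UMIs per EC of 12946 and 13107.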
